A study of Mus musculus with 24 samples.

Results

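The 10 genes of the mouse small intestine described here were selected on measured values of these arrays, because their difference between Casp1-null and wild-type mice was not the same in duodenum, jejunum and ileum. They are Pik3ap1, ccdc198, Hao2, Slc25a48, Cxcl11, Cbr3, Pzp, Fbxw9, Ciapin1 and Tnip3, which make 10 of the 18820 genes named on the arrays, each with 1 probe set. The tested animals were male Casp1-null mice, backcrossed for 10 generations to C57BL/6, and their controls were age-matched male wild-type C57BL/6J mice, all 14 to 16 weeks old and fed chow. Intestinal RNA came from epithelium scraped from each segment of mice that had fasted overnight and then received 200 µL of olive oil into the stomach 2 h before sampling. Liver RNA came from mice after a 16 h fast with no oil. Each of the 8 groups, 4 tissues by 2 genotypes, held 3 arrays, 24 in all. The labels do not say which segments came from the same mouse, and the design cannot tell caspase-1 loss apart from any other difference between the backcrossed line and the controls.

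The small intestine divides its work along its length. The duodenum and jejunum absorb most nutrients, iron and fat, while the ileum takes up bile acids and meets more microbes, and epithelial cells of each segment express their own sets of enzymes and carriers. Caspase-1 is the protease of inflammasomes, which processes interleukin-1 family cytokines and triggers an inflammatory cell death.

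All 10 genes were among the 30 probe sets called for a segment-dependent genotype difference (limma F test over the 18 intestinal arrays, adjusted p under 0.05), against 0.0844% of the 35556 probe sets. The members were chosen by that measured interaction, so the intestinal values below are a description without tests. With 1 array left out at a time, Slc25a48 stayed called in 3 of 18 fits (limma adjusted p up to 0.157), Fbxw9 in 15 (up to 0.0576, not without wild-type duodenum arrays 2 or 3 or Casp1-null duodenum array 3) and Cxcl11 in 16 (up to 0.0546, not without Casp1-null ileum arrays 2 or 3). The other 7 members stayed called in all 18, and the count over all probe sets ran from 16 to 30. These fits reuse the arrays by which the members were chosen. They describe dependence on single arrays and are no test of the members. In the order of that test's p the members stood at places 1 (Pik3ap1), 2 (ccdc198), 5 (Tnip3), 6 (Ciapin1), 7 (Cbr3), 8 (Pzp), 9 (Hao2), 15 (Fbxw9), 17 (Cxcl11) and 26 (Slc25a48). Next to Slc25a48 in that order, Rcan1, a calcineurin regulator, differed by 0.24 in duodenum, -0.77 in jejunum and 0.45 in ileum, and a probe set without a gene name by -0.16, -0.04 and -1.31. Both were also called and are no members. The 3 genes that followed the first 10 genes were Pglyrp1, a secreted peptidoglycan-binding protein (0.06, -1.65 and -0.49), the member Fbxw9, and Fosb, an immediate early gene (-0.38, 2.61 and 0.12). Every difference in the text is a log2 value, the Casp1-null mean less the wild-type mean.

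For each of the 10 genes the wild-type segment mean farthest from the other segments was taken. Among genes chosen for an interaction, taking the wild-type extreme favours a smaller step in Casp1-null mice, so the count is a description. The step of that segment from the mean of the others was smaller in size in Casp1-null mice for all 10 genes. Its sign was opposite for Cxcl11 (0.39 in Casp1-null mice, -1.31 in wild type) and Tnip3 (-0.07 in Casp1-null mice, 1.68 in wild type). That segment was the ileum for 5 genes, high for Pik3ap1, ccdc198, Hao2 and Slc25a48 and low for Cxcl11. The duodenum was high for Cbr3, Pzp, Fbxw9 and Ciapin1, and the jejunum for Tnip3. In Casp1-null mice ccdc198, Hao2, Cbr3, Pzp and Tnip3 had mean levels below the background given further down in every segment. Their Casp1-null steps, with the sign for Tnip3, are therefore steps between such low values.

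**Figure D1:**
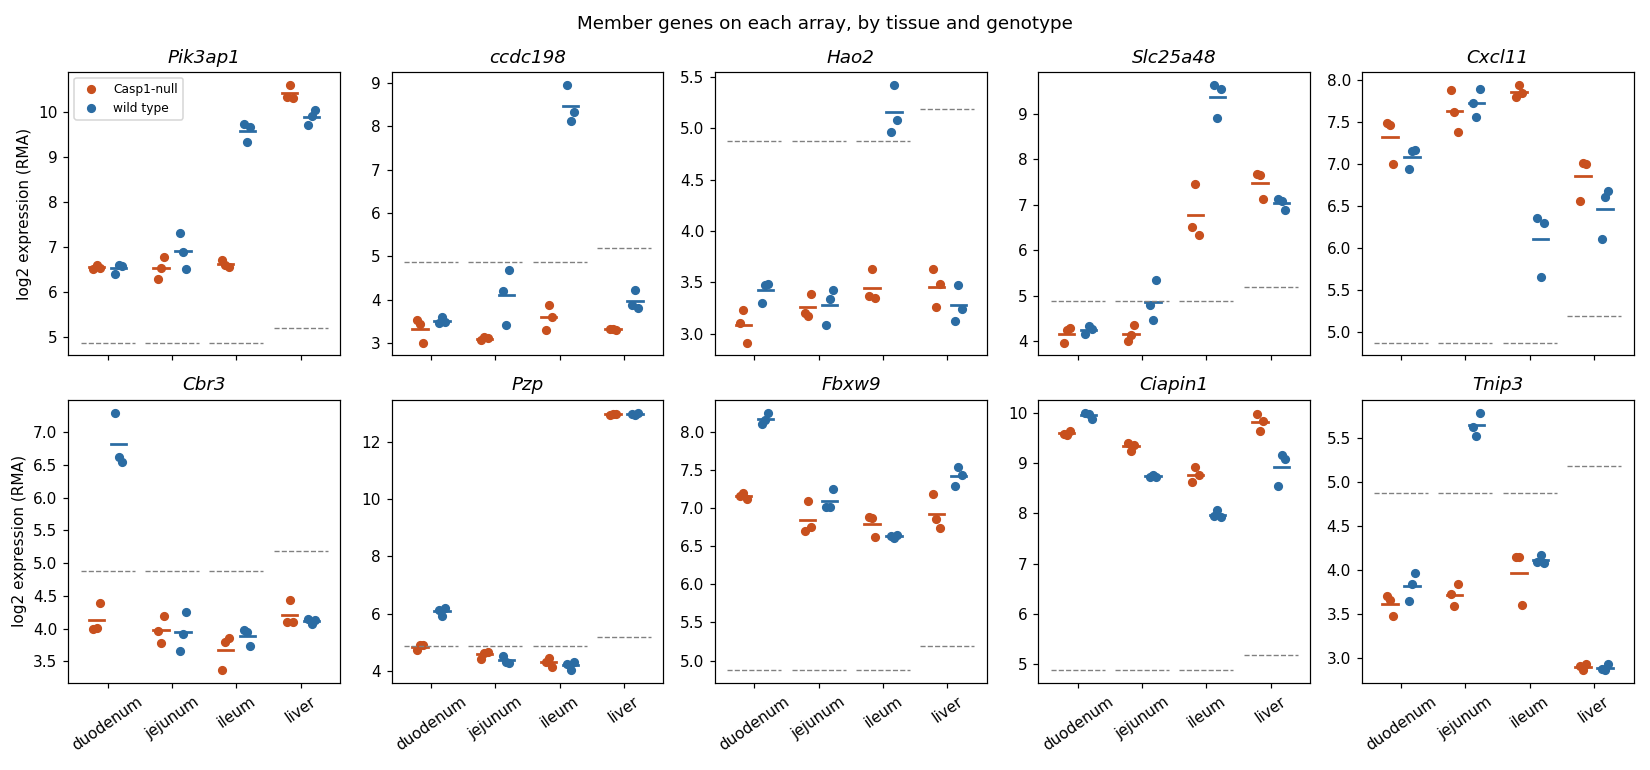
Log2 expression (RMA values as deposited) of the 10 genes on each array, with 3 Casp1-null arrays (orange) beside 3 wild-type arrays (blue) per tissue. Points are arrays, short bars are means, and the dashed line is the lowest array median of the tissue (4.87 in intestine, 5.19 in liver). The ccdc198 points of wild-type ileum lie at 8.12 to 8.96, above all its other points, and Ciapin1 has separate genotypes in all 4 tissues.

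Background was set at the lowest array median, 4.87 in intestine and 5.19 in liver, and a group mean under it was treated as a level not shown above background. Against a group that low, a higher group's fold is written as "at least". Where both groups were that low, no fold is drawn from their values.

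Pik3ap1 encodes an adaptor that couples B cell receptor and Toll-like receptor signalling to phosphoinositide 3-kinase. In ileum its level was 6.70, 6.60 and 6.54 on the Casp1-null arrays and 9.72, 9.32 and 9.67 on the wild-type arrays. The groups did not overlap, and the difference of -2.96 (SE 0.17) was 7.76-fold. In jejunum the values were 6.29, 6.53 and 6.77 in Casp1-null mice and 7.31, 6.88 and 6.51 in wild type, with overlap (-0.37). In duodenum they were 6.50, 6.60 and 6.52 in Casp1-null mice and 6.40, 6.60 and 6.58 in wild type, which also overlapped (0.01). The Casp1-null ileal arrays overlapped the duodenal arrays of both genotypes, and the 3 Casp1-null segment means lay within 0.09 of each other, against 3.04 in wild type.

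The transcript ccdc198, named for a coiled-coil domain, had the largest difference of the 10 genes. Ileal values were 3.29, 3.87 and 3.60 on the Casp1-null arrays and 8.96, 8.12 and 8.33 on the wild-type arrays. The Casp1-null mean of 3.59 ± 0.29 was not shown above background, so the ileal level was at least 29.5-fold lower than the wild-type mean of 8.47 ± 0.44 (SD, n = 3 each; difference -4.88, SE 0.27). In jejunum the Casp1-null arrays, 3.05, 3.14 and 3.11, all lay below the wild-type arrays, 4.19, 3.41 and 4.68. In duodenum both genotypes were low and overlapped, at 3.53, 3.45 and 3.01 in Casp1-null mice and 3.46, 3.59 and 3.48 in wild type. The jejunal and duodenal means of both genotypes were under the array median, so no fold is drawn from them.

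Hao2 encodes a peroxisomal enzyme that oxidises 2-hydroxy acids. Its ileal values were 3.36, 3.63 and 3.35 in Casp1-null mice and 4.96, 5.42 and 5.08 in wild type. The groups were apart by -1.71 (SE 0.13), at least 3.27-fold, and the wild-type level itself was only slightly above the array median. In duodenum the Casp1-null arrays at 3.10, 3.23 and 2.92 lay below the wild-type arrays at 3.30, 3.48 and 3.49. In jejunum the Casp1-null arrays at 3.20, 3.18 and 3.39 overlapped the wild-type arrays at 3.09, 3.34 and 3.43. All 4 of those group means were under the array median.

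Slc25a48 belongs to the mitochondrial carrier family and has been linked to choline import into mitochondria. Ileal values were 6.50, 7.46 and 6.33 in Casp1-null mice and 9.64, 8.91 and 9.53 in wild type, a difference of -2.59 (SE 0.27), or 6.04-fold. Among the intestinal segments the gene was highest in ileum in both genotypes. The ileum exceeded the mean of the other segments by 2.61 in Casp1-null mice and by 4.80 in wild type. Jejunal arrays were lower in Casp1-null mice, at 3.99, 4.12 and 4.35, than in wild type, at 4.80, 4.46 and 5.34, though both means were under the array median. Duodenal arrays overlapped at 3.97, 4.24 and 4.28 in Casp1-null mice and 4.15, 4.34 and 4.25 in wild type.

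The promoters of the ileum-high genes are shown because, among the intestinal segments, their wild-type levels were highest in ileum. Their transcripts had Pearson's r between 0.87 and 0.97 for the 6 pairs of these genes over the same 18 intestinal arrays, which share tissue and genotype. Sequences are RefSeq's on GRCm38.p6, 250 bases before to 50 after the annotated start, 5′ to 3′ on the gene's strand, and 9 of the 10 genes had an entry. Pik3ap1 lies at chr19:41385053-41385352 on the minus strand (GC content 69.7%), ccdc198 at chr14:49245379-49245678 on the minus strand (43.0%), Hao2 at chr3:98893181-98893480 on the minus strand (32.3%) and Slc25a48 at chr13:56438105-56438404 on the plus strand (56.3%). Capitals mark the matches to searched motifs, 1 in Hao2 and 1 in Slc25a48.
Pik3ap1: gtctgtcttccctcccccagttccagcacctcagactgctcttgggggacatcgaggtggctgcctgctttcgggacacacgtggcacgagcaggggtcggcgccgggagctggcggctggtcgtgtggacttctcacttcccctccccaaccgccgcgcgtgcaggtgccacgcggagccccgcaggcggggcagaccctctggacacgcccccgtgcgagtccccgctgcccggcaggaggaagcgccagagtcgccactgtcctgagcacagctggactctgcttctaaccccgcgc
ccdc198: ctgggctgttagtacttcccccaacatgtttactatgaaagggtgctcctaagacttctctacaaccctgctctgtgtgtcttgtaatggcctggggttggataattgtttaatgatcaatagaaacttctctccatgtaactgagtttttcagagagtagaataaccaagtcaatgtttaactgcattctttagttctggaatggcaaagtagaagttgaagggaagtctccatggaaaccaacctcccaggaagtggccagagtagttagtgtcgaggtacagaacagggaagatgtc
Hao2: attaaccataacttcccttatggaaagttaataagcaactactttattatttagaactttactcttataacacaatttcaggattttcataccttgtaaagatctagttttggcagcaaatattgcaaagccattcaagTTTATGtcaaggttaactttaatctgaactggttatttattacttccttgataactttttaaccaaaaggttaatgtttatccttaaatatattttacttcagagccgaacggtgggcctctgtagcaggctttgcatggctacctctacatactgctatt
Slc25a48: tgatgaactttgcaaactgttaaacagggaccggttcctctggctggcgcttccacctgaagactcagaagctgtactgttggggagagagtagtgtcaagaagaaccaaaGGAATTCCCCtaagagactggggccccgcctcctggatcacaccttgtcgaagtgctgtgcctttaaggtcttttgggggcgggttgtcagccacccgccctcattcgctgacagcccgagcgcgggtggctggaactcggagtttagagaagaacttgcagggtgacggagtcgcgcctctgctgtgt

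These letters were searched on both strands for 8 short motifs. For intestinal factors they were AGATAA for the GATA family (in 11.2% of 32851 promoters of this length), TTTATG for CDX2 (11.9%) and CAAAGTCCA for HNF4 (0.475%). For stress and immune factors they were GGGANNTTC for the kB site of NF-kappaB (3.94%), GAAANNGAA for interferon regulatory factors (8.56%) and TGACNNNGC for Nrf2's antioxidant response element (12.4%), and TATAAA for the TATA box (13.6%) was added. The wider kB consensus of NF-kappaB (4.51%), which can overlap the kB letters above, was searched after the windows had been seen. Hao2 held CDX2's letters at bases 140 to 145, the first of them at position -111 from the start. Slc25a48 held the kB consensus on the opposite strand at bases 112 to 121, from position -139. No searched motif was held by more than 1 of these 4 windows. A match is a description of letters and not a binding site.

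Cxcl11 and Ciapin1 were the members whose Casp1-null ileal arrays all lay above the wild-type ones. Cxcl11 encodes an interferon-induced chemokine that attracts T cells through the receptor CXCR3. In C57BL/6 mice the gene is known to carry a frameshift, so its transcript is read here as RNA only. Ileal values were 7.81, 7.95 and 7.85 on the Casp1-null arrays and 6.36, 5.66 and 6.30 on the wild-type arrays, a difference of 1.76 (SE 0.18) or 3.40-fold. Jejunal arrays overlapped at 7.89, 7.62 and 7.38 in Casp1-null mice and 7.73, 7.57 and 7.90 in wild type. Duodenal arrays also overlapped, at 7.49, 7.47 and 7.01 in Casp1-null mice and 6.94, 7.16 and 7.17 in wild type. The Casp1-null order was ileum, jejunum, duodenum with overlapping neighbours, and the wild-type order was jejunum, duodenum, ileum with neighbours that did not overlap.

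Cbr3 was the duodenal gene with the largest difference. It encodes a carbonyl reductase that uses NADPH and is known as a target of the oxidative stress factor Nrf2. Duodenal values were 4.0, 4.01 and 4.39 in Casp1-null mice and 7.30, 6.62 and 6.54 in wild type. The Casp1-null mean of 4.13 ± 0.22 was not shown above background, and the level was at least 6.43-fold below the wild-type mean of 6.82 ± 0.42 (SD, n = 3 each; difference -2.68, SE 0.21). In jejunum the arrays overlapped, at 3.96, 3.78 and 4.19 in Casp1-null mice and 3.66, 3.92 and 4.26 in wild type. They overlapped in ileum as well, at 3.37, 3.80 and 3.85 in Casp1-null mice and 3.98, 3.94 and 3.73 in wild type. All 5 groups other than wild-type duodenum were under the array median.

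Pzp encodes a secreted protease inhibitor of the alpha-2-macroglobulin family and is a liver product in mice. Its duodenal values were 4.72, 4.90 and 4.89 in Casp1-null mice and 6.12, 5.93 and 6.18 in wild type, at least 2.36-fold apart (-1.24, SE 0.12). The other segments were under the array median in both genotypes. In jejunum the values were 4.41, 4.64 and 4.68 in Casp1-null mice and 4.52, 4.32 and 4.27 in wild type. In ileum they were 4.30, 4.45 and 4.15 in Casp1-null mice and 4.25, 4.02 and 4.30 in wild type.

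Fbxw9 encodes an F-box protein with WD40 repeats, a type of substrate receptor of SCF ubiquitin ligases. Duodenal values were 7.15, 7.20 and 7.12 in Casp1-null mice and 8.10, 8.15 and 8.25 in wild type, a difference of -1.01 (SE 0.11) or 2.01-fold. Jejunal arrays overlapped narrowly, at 6.70, 7.09 and 6.74 in Casp1-null mice and 7.02, 7.01 and 7.24 in wild type. Ileal arrays overlapped at 6.88, 6.87 and 6.63 in Casp1-null mice and 6.64, 6.60 and 6.64 in wild type. All 6 group means were above the array median.

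Ciapin1, also called anamorsin, passes electrons to the machinery that builds iron-sulfur clusters in the cytosol. It was the only one of the 10 genes whose arrays were fully apart in all 3 segments, and the direction differed between them. Duodenal values were 9.58, 9.57 and 9.64 in Casp1-null mice and 10.01, 9.97 and 9.88 in wild type (-0.36, SE 0.08). Jejunal values were 9.40, 9.24 and 9.37 in Casp1-null mice and 8.73, 8.76 and 8.73 in wild type (0.60). Ileal values were 8.62, 8.93 and 8.75 in Casp1-null mice and 7.95, 8.06 and 7.92 in wild type (0.79, or 1.73-fold). The order duodenum, jejunum, ileum held in both genotypes with no overlap between neighbours, over a span of 0.83 in Casp1-null mice and 1.98 in wild type.

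Tnip3 encodes an A20-binding protein that restrains NF-kappaB signalling and, in human cells, is itself induced by bacterial lipopolysaccharide. Jejunal values were 3.73, 3.59 and 3.85 in Casp1-null mice and 5.63, 5.53 and 5.79 in wild type, at least 3.81-fold apart (-1.93, SE 0.14). Duodenal values were 3.70, 3.65 and 3.48 in Casp1-null mice and 3.65, 3.85 and 3.97 in wild type. Ileal values were 4.14, 4.15 and 3.60 in Casp1-null mice and 4.10, 4.17 and 4.08 in wild type. Both of those segments were under the array median in both genotypes, and their arrays overlapped.

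The promoters of Cbr3 and Tnip3 are shown because motifs of the pathways known for these genes, Nrf2 and NF-kappaB, were among those searched. Cbr3 lies at chr16:93682969-93683268 on the plus strand and Tnip3 at chr6:65590148-65590447 on the plus strand. The capitals in Tnip3 mark TATA's letters on the opposite strand, at position -120 from the start, and the kB consensus at bases 197 to 206, which reads as that consensus on both strands, from position -54.
Cbr3: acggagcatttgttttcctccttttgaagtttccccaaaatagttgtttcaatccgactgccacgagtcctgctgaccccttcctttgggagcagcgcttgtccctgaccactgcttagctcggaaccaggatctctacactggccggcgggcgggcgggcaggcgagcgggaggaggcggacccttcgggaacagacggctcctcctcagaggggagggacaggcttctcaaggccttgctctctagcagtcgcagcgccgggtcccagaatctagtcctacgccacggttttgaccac
Tnip3: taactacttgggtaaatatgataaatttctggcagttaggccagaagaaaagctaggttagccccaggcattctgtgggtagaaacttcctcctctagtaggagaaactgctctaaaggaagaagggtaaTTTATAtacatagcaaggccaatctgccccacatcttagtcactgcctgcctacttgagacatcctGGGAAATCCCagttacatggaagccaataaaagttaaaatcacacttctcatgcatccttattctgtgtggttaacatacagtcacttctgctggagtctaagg

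Neither window held the searched letters of the antioxidant response element or the shorter kB letters. In the window of Ciapin1, at chr8:94838291-94838590 on the minus strand, the letters of the antioxidant response element stood on the opposite strand at position -36. The windows of Pzp, at chr6:128526671-128526970 on the minus strand, and Fbxw9, at chr8:85059869-85060168 on the plus strand, held none of the 8 motifs. The absence of these letters says nothing about a factor's binding elsewhere.

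**Figure D2:**
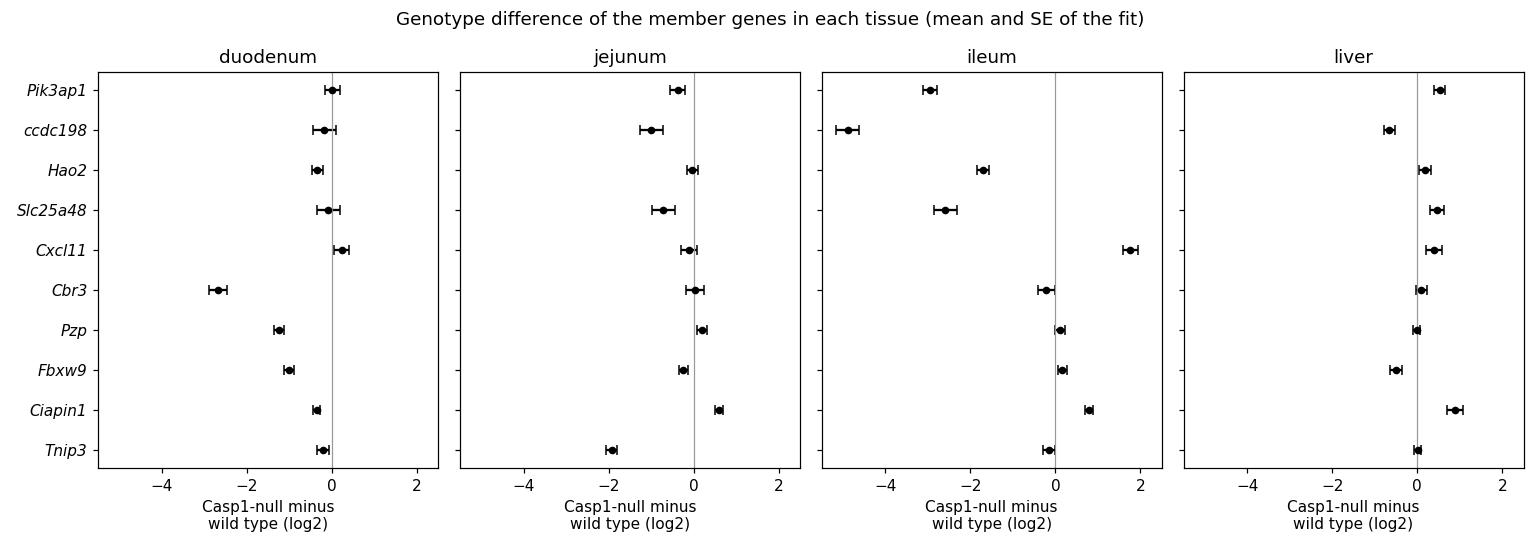
Log2 difference, Casp1-null less wild type, for the 10 genes in duodenum, jejunum, ileum and liver, with points for the difference and bars for its standard error. In ileum 4 genes lie between -4.88 and -1.71 and Cxcl11 at 1.76, while Cbr3 is at -2.68 in duodenum and Tnip3 at -1.93 in jejunum.

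Counted over the 10 genes, the 3 Casp1-null arrays lay fully apart from the 3 wild-type arrays for 5 in duodenum (20.2% of all probe sets), 4 in jejunum (17.3%) and 6 in ileum (9.28%). All 5 in duodenum were lower in Casp1-null mice (9.93% of all probe sets). In jejunum 1 was higher (8.35%) and 3 were lower (8.96%), and in ileum 2 were higher (4.74%) and 4 were lower (4.54%). The rule used these arrays, so nothing is read from the counts.

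The measured segment means differed less in Casp1-null mice than in wild type for all 10 genes. These spans use the arrays and values by which the members were chosen. The count and its comparison with other probe sets are therefore a description, and nothing is read from them. The highest minus the lowest segment mean had a median of 0.48 in Casp1-null mice and 1.93 in wild type. For ccdc198, Hao2, Cbr3, Pzp and Tnip3 no segment of Casp1-null mice reached background on average. Their Casp1-null spans are spans of such low values and may be narrow for that reason. Pik3ap1, Cxcl11, Fbxw9 and Ciapin1 stayed above background in every segment of both genotypes. Their spans in Casp1-null mice were 0.09, 0.55, 0.37 and 0.83, against 3.04, 1.63, 1.54 and 1.98 in wild type. Whether the probe sets compared next were as low was not tested. Among the other 20 probe sets called for the same interaction, the span was narrower in Casp1-null mice for 12, with medians of 1.34 in Casp1-null mice and 1.33 in wild type. Over all 35556 probe sets it was narrower for 59.1%, with medians of 0.26 in Casp1-null mice and 0.30 in wild type. Called probe sets with a wider Casp1-null span, chosen here after their values were seen, were those of Fosb (3.18 in Casp1-null mice and 0.30 in wild type) and Amph (1.75 and 0.14 in the same order).

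**Figure D3:**
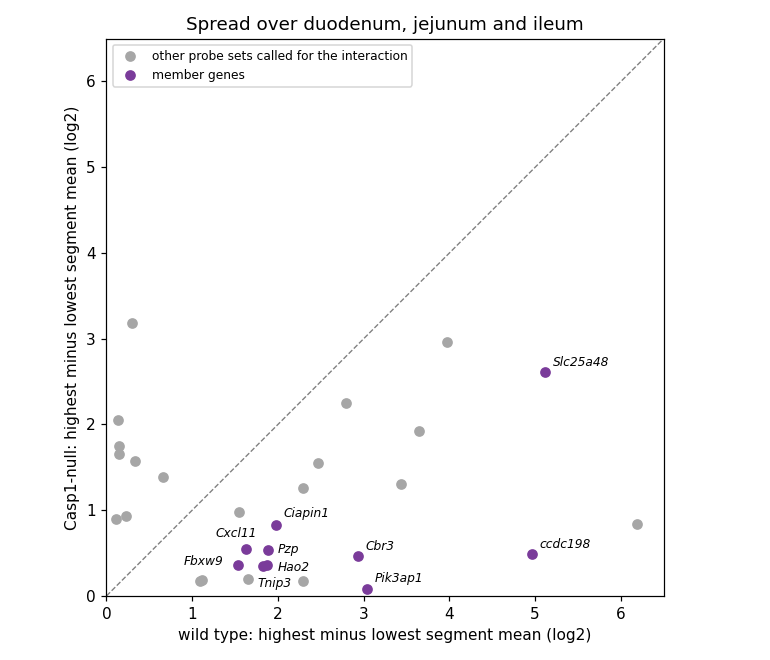
Highest minus lowest segment mean (log2) in Casp1-null mice on the vertical axis and in wild type on the horizontal axis, for the 10 genes (purple) and the other 20 probe sets called for the interaction (grey); the dashed line marks equal spans. All 10 genes lie below the line, from 0.09 against 3.04 for Pik3ap1 to 2.61 against 5.11 for Slc25a48, while 8 grey points lie above it. For ccdc198, Hao2, Cbr3, Pzp and Tnip3 the vertical value is a span of levels not shown above background. The 10 genes were chosen on these arrays.

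Genes with the most similar pattern were taken by Pearson's r over the 18 intestinal arrays, with no test, since these arrays share segment and genotype. Pik3ap1 was closest to Tgm5, a transglutaminase (r = 0.91; ileal difference -1.34), and to the tight-junction gene Cldn8 (0.91; -2.26). The closest to ccdc198 were Tgm5 (0.91) and Tbc1d2, a regulator of Rab proteins (0.91; -0.84). Hao2 was closest to Cldn8 (0.94) and Tbc1d2 (0.89). Slc25a48 was closest to Alg9, an enzyme of N-glycan assembly (0.96), whose ileal difference was only -0.30, and to Cldn8 (0.95). Cldn8 is itself at place 4 for the segment-dependent difference.

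The neighbours of Cbr3, Pzp and Fbxw9 had lower means in Casp1-null duodenum, which their choice by r over these arrays favours. Cbr3 was closest to Cyp2c29, a drug-metabolising cytochrome P450 (r = 0.96; duodenal difference -5.47), and to the kinase gene Wee2 (0.92; -1.13). Pzp was closest to the sugar transporter gene Slc2a6 (0.92; -0.71) and to Ugt2b38, a glucuronosyltransferase (0.92; -2.10). Fbxw9 was closest to Hnf4aos, an RNA antisense to Hnf4a (0.92; -1.11), and to Slc2a6 (0.92). Ciapin1 was closest to Capn15, of the calpain family (0.95), and to Trub2, a pseudouridine synthase (0.94), whose differences were -0.11 and -0.02 in duodenum and 0.37 and 0.46 in ileum. Cxcl11 had only looser neighbours, Comtd1 (0.78) and Guca2b, which encodes uroguanylin (0.77). Tnip3 was closest to Hamp, the gene of the iron hormone hepcidin, whose near-identical copy Hamp2 may share its signal (0.91; jejunal difference -1.43), and to Nfkb2, a subunit of NF-kappaB (0.89; -1.16). Among the 10 genes the highest r was 0.97, for Pik3ap1 with ccdc198, and Pzp with Fbxw9 had 0.95.

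Liver was not used to choose the genes, so the genotype difference could be tested there. None of the 10 was called in liver (limma, adjusted p under 0.05 over all probe sets; 0.726% of all probe sets were called), while 5 of 10 had an unadjusted p under 0.05, as did 11.7% of all probe sets. The same 5 had Casp1-null arrays fully apart from wild-type arrays, 3 higher (8.36% of all probe sets) and 2 lower (9.21%; 17.6% in either direction). With 3 arrays per genotype only large differences could pass.

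Ciapin1 had the largest liver difference. Its values were 9.99, 9.64 and 9.84 in Casp1-null livers and 8.54, 9.16 and 9.08 in wild-type livers, a difference of 0.89 (95% interval 0.45 to 1.34; limma adjusted p = 0.117). Pik3ap1 stood at 10.32, 10.60 and 10.30 in Casp1-null livers and 9.69, 9.90 and 10.04 in wild-type livers (0.52; 95% interval 0.21 to 0.84; limma adjusted p = 0.189). The groups did not overlap, and the sign was opposite to that in ileum. Slc25a48 stood at 7.68, 7.65 and 7.12 in Casp1-null livers and 7.12, 7.07 and 6.89 in wild-type livers (0.46; limma adjusted p = 0.36), and its lowest Casp1-null array was only just above the highest wild-type array.

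The 2 lower genes of the 5 were Fbxw9 and ccdc198. Fbxw9 stood at 7.18, 6.85 and 6.73 in Casp1-null livers and 7.29, 7.53 and 7.43 in wild-type livers (-0.50; 95% interval -0.83 to -0.16; limma adjusted p = 0.234). For ccdc198 the values were 3.31, 3.32 and 3.29 in Casp1-null livers and 3.88, 4.21 and 3.80 in wild-type livers (-0.66; limma adjusted p = 0.0946), both groups under the liver array median, so that no fold is drawn. With the spread taken from all 24 arrays, Ciapin1 (limma adjusted p = 0.000229) and Fbxw9 (limma adjusted p = 0.0288) passed, each in 1 of 13 alternative fits. That spread includes the intestinal arrays by which the members were chosen, so it gives no test independent of the choice. For Ciapin1 the SE was 0.19 in the liver fit and 0.08 in the intestinal fit.

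The other 5 genes overlapped between genotypes in liver. Pzp, a liver product, was near the top of the scale at 12.96, 13.00 and 12.98 in Casp1-null livers and 12.98, 12.95 and 13.03 in wild-type livers, and its 95% interval ran from -0.21 to 0.18. Cxcl11 stood at 6.57, 7.02 and 7.0 in Casp1-null livers and 6.11, 6.61 and 6.68 in wild-type livers (0.40; 95% interval -0.07 to 0.86; limma adjusted p = 0.508). Cbr3, Hao2 and Tnip3 were under the liver array median in both genotypes, with values between 2.86 and 4.44.

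Genes of each member's pathway were tested in the same fits from lists of related genes. For Tnip3, 20 other genes of NF-kappaB signalling were measured. In jejunum 6 of them were lower and 0 higher (limma, adjusted p under 0.05; 1.63% of all probe sets were called there), and the median difference was -0.60, against -0.01 over all probe sets. Ccl20, a chemokine for dendritic and T cells, averaged 5.81 ± 0.85 in Casp1-null jejunum and 9.51 ± 0.18 in wild type (SD, n = 3 each; limma adjusted p = 0.00104). Nos2, the inducible nitric oxide synthase, averaged 8.39 ± 0.71 in Casp1-null jejunum and 12.12 ± 0.14 in wild type (SD, n = 3 each; limma adjusted p = 0.00197). Nfkb2 (-1.16, limma adjusted p = 0.00359) and Birc3, an inhibitor of apoptosis (-0.64, limma adjusted p = 0.0294), were lower too. Leaving out 1 array at a time, 3 (without wild-type jejunum array 1) to 7 of the 20 were lower in jejunum. Ccl20, Nos2 and Nfkb2 stayed called in all 18 of those fits, and Birc3 in 12 of them (limma adjusted p up to 0.111). In duodenum, ileum and liver 0 of the 20 were called by limma, with 2, 1 and 0 lower and 0 higher at an unadjusted p under 0.05 (lower in 6.04%, 3.25% and 6.22% of all probe sets). In ileum Nos2 stood at 11.14 in Casp1-null mice and 11.18 in wild type. None of the 20 was called by limma for a segment-dependent difference, while 8 had an unadjusted p under 0.05 (5.39% of all probe sets).

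**Figure D4:**
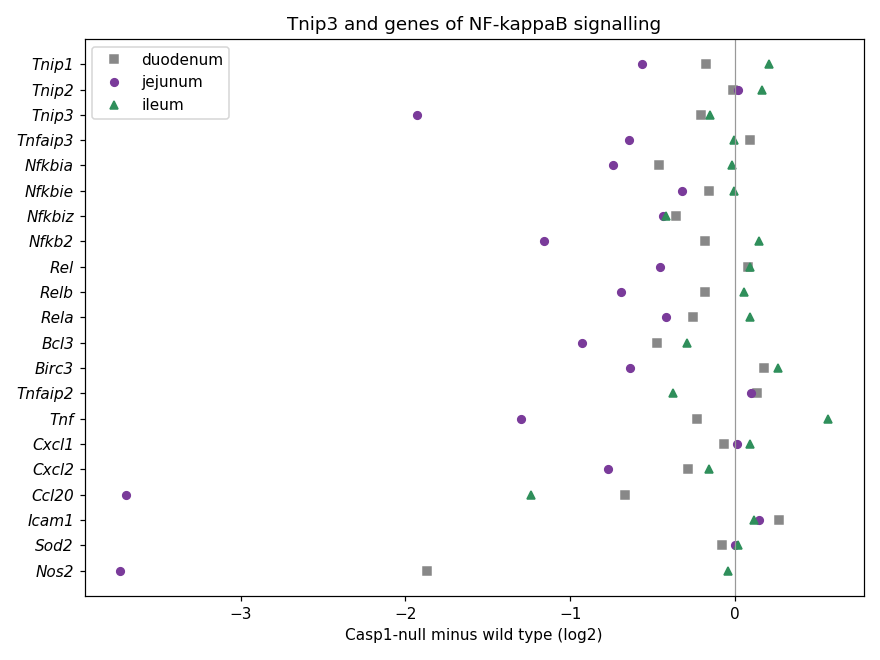
Casp1-null minus wild type (log2) in duodenum (squares), jejunum (circles) and ileum (triangles) for Tnip3 and 20 other genes of NF-kappaB signalling. Jejunal points lie furthest left for Nos2 (-3.73), Ccl20 (-3.69), Tnip3 (-1.93) and Tnf (-1.30).

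For Cxcl11, 26 other genes of interferon response and CXCR3 signalling were measured, and none was called in ileum by limma (0.726% of all probe sets were), with 6 higher and 1 lower at an unadjusted p under 0.05 (3.31% and 3.25% of all probe sets). The sister chemokine Cxcl9 averaged 9.09 in Casp1-null ileum and 7.71 in wild type (1.37, limma adjusted p = 0.252), and Cxcl10 averaged 6.73 and 6.50 in the same order. The genes called elsewhere were lower. Oasl2, an interferon-induced antiviral gene, fell by 1.81 in duodenum (limma adjusted p = 0.00214; 1.03% of all probe sets were called there) and by 1.78 in jejunum (limma adjusted p = 0.00228). Ubd, a ubiquitin-like modifier, fell by 3.49 in jejunum (limma adjusted p = 0.00163). These 3 calls stayed in all 18 fits that left out 1 intestinal array.

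For Cbr3, 23 other genes of carbonyl reduction and the Nrf2 response were measured. In duodenum 2 were lower and 0 higher by limma (1.03% of all probe sets were called there). The median difference was -0.16, against -0.03 over all probe sets. Gsta3, a glutathione transferase, averaged 5.68 ± 0.09 in Casp1-null duodenum and 7.42 ± 0.25 in wild type (SD, n = 3 each; limma adjusted p = 0.0259). Gclm, of glutathione synthesis, differed by -0.52 (limma adjusted p = 0.0474). Nqo1, a quinone reductase, was lower in jejunum (-0.80, limma adjusted p = 0.0392). Of 18 fits that each left out 1 array, Gsta3 stayed called in 12 (limma adjusted p up to 0.11, without wild-type duodenum array 3), Gclm in 4 (up to 0.156, without Casp1-null duodenum array 3) and Nqo1 in 8 (up to 0.167, without Casp1-null jejunum array 3). At an unadjusted p under 0.05 the lower genes numbered 8 in duodenum (6.04% of all probe sets), 5 in jejunum (5.64%), 0 in ileum (3.25%) and 10 in liver (6.22%). The higher genes numbered 2 in liver (5.43%) and 0 in the intestinal segments. Cbr1, the close relative of Cbr3, stood at 11.01 in Casp1-null duodenum and 11.43 in wild type and was not called (limma adjusted p = 0.26); it is named for its kinship, after its values were seen.

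For Hao2, 24 other genes of peroxisomal oxidation were measured, of which 1 was higher and 1 lower in ileum by limma (0.726% of all probe sets were called there). At an unadjusted p under 0.05, 7 were higher and 1 lower in ileum (3.31% and 3.25% of all probe sets). Their median ileal difference was 0.17. Dao, D-amino acid oxidase, averaged 7.29 ± 0.37 in Casp1-null ileum and 6.04 ± 0.30 in wild type (SD, n = 3 each; limma adjusted p = 0.021). Pipox, which oxidises pipecolic acid and sarcosine, averaged 6.81 ± 0.36 in Casp1-null ileum and 8.09 ± 0.21 in wild type (SD, n = 3 each; limma adjusted p = 0.0119). Leaving out 1 array at a time, Dao stayed called in 14 of 18 fits (limma adjusted p up to 0.0986, without Casp1-null ileum array 2) and Pipox in 15 (up to 0.0676, without wild-type ileum array 3). For Slc25a48, 27 other mitochondrial carriers and choline genes gave 1 call, Sardh, sarcosine dehydrogenase, lower in jejunum (-0.77, limma adjusted p = 0.00696). In ileum 0 of the 27 were called by limma, with 4 higher and 2 lower at an unadjusted p under 0.05 (3.31% and 3.25% of all probe sets).

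For Ciapin1, 11 other genes of cytosolic iron-sulfur assembly gave 1 call, Nubp2, a scaffold of that machinery, higher in jejunum (0.47, limma adjusted p = 0.022). It stayed called in 14 of 18 fits that left out 1 array (limma adjusted p up to 0.0992, without Casp1-null jejunum array 1). The lists of Pik3ap1 (20 other genes of phosphoinositide 3-kinase signalling), Pzp (7 of the alpha-2-macroglobulin family) and Fbxw9 (13 of SCF ligases) gave 0 calls by limma in any tissue. At an unadjusted p under 0.05 the ileal counts were 1 higher and 1 lower for the list of Pik3ap1 (3.31% and 3.25% of all probe sets). The duodenal counts were 0 higher and 1 lower for that of Pzp and 1 and 1 for that of Fbxw9 (6.52% and 6.04% of all probe sets).

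Markers of cell type and position moved with some of these differences. In bulk samples fewer cells of a type and less RNA per cell cannot be told apart. In ileum the mean over 8 markers of proximal intestine was 7.50 to 8.47 on Casp1-null arrays and 6.77 to 7.33 on wild-type arrays, with no overlap. The mean over 10 enterocyte markers was 11.77 to 11.94 in Casp1-null ileum and 11.05 to 11.70 in wild type, again with no overlap. Both lists hold Fabp1, Lct and Apoa4. Fabp1, a fatty acid binding protein, was called higher in ileum (1.76, limma adjusted p = 0.000381), and no other gene of these lists was called there. Lct, the lactase gene, differed by 1.21, Apoa4, an apolipoprotein gene, by 0.47 and Rbp2, a retinol binding protein gene, by 0.78. The enterocyte genes Sis (-0.06), Anpep (0.05), Vil1 (0.09) and Apoa1 (0.12) differed by less, and the proximal gene Slc40a1, an iron exporter, by -0.98. These markers are named after their values were seen. The 7 distal markers overlapped in ileum, at 11.20 to 11.40 in Casp1-null mice and 11.12 to 11.48 in wild type. Their level in duodenum was 7.63 to 8.04 in Casp1-null mice and 7.58 to 7.84 in wild type, so the labelled segments kept their known order. The part of proximal and enterocyte markers in the ileal differences was not tested.

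In ileum Casp1-null array 3 and wild-type array 2 were high in 10 stroma and muscle markers, at 8.60 and 8.89, against 4.38 to 4.63 on the other 4. Without these 2 arrays the ileal differences were -3.05 for Pik3ap1, -5.06 for ccdc198, -1.52 for Hao2, -2.60 for Slc25a48 and 1.55 for Cxcl11, while Dao (limma adjusted p = 0.0525) and Pipox (limma adjusted p = 0.0633) were no longer called there. In duodenum wild-type array 1 was high in 12 exocrine pancreas markers, at 9.59, against 4.60 to 4.95 on the other 5. Without it the duodenal differences were -2.44 for Cbr3, -1.22 for Pzp, -1.04 for Fbxw9 and -0.33 for Ciapin1.

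Of 14 marker lists, 5 had fully separate genotypes in duodenum. Stroma and muscle markers lay at 4.97 to 5.29 in Casp1-null duodenum and 4.45 to 4.60 in wild type. Within that list Dcn differed by 2.89 and Acta2 by 1.36, but Col1a1 by -0.01 and Lum by -0.24 (list median 0.28). Markers of B and plasma cells lay at 6.08 to 6.45 in Casp1-null duodenum and 5.69 to 5.82 in wild type. Here Pax5 (-0.33), Fcer2a (-0.23), Xbp1 (-0.20) and Ms4a1 (-0.07) were lower, while Jchain differed by 1.95 and Mzb1 by 1.68 (list median 0.09). These single genes are named after their values were seen. The list means of myeloid (5.63 to 6.26 in Casp1-null duodenum, 5.33 to 5.54 in wild type) and endothelial markers (4.58 to 5.07 in Casp1-null duodenum, 4.35 to 4.39 in wild type) were higher as well, and those of tuft cell markers were lower (5.73 to 5.93 in Casp1-null duodenum, 6.01 to 6.17 in wild type). The wild-type ranges of the endothelial and the stroma and muscle lists lay under the intestinal background of 4.87. No gene of these 5 lists was called by limma in duodenum. In jejunum tuft cell markers were also lower, at 5.26 to 5.86 in Casp1-null mice and 6.03 to 6.26 in wild type, and hepatocyte markers were near background, at 4.70 to 4.93 in Casp1-null mice and 4.49 to 4.70 in wild type. The last 2 ranges were barely apart. In liver 6 lists were fully apart and lower in Casp1-null mice, among them enterocyte markers (8.07 to 8.18 in Casp1-null livers, 8.30 to 8.62 in wild-type livers) and distal markers (4.57 to 4.75 in Casp1-null livers, 5.41 to 5.65 in wild-type livers). That Casp1-null distal range lay under the liver background of 5.19. The distal gene Clec2h differed by -3.73 in liver (limma adjusted p = 0.00766), against a list median of -0.29. The enterocyte list had a liver median of -0.57, but Apoa4 was higher (1.37), and Apoa1 (0.02) and Fabp1 (-0.04) hardly differed. The part of these lists in the members' differences was not tested. The 9 hepatocyte markers marked the labelled tissue, at 12.78 to 12.82 in Casp1-null livers and 12.73 to 12.79 in wild-type livers, against at most 5.27 on any intestinal array.

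**Figure D5:**
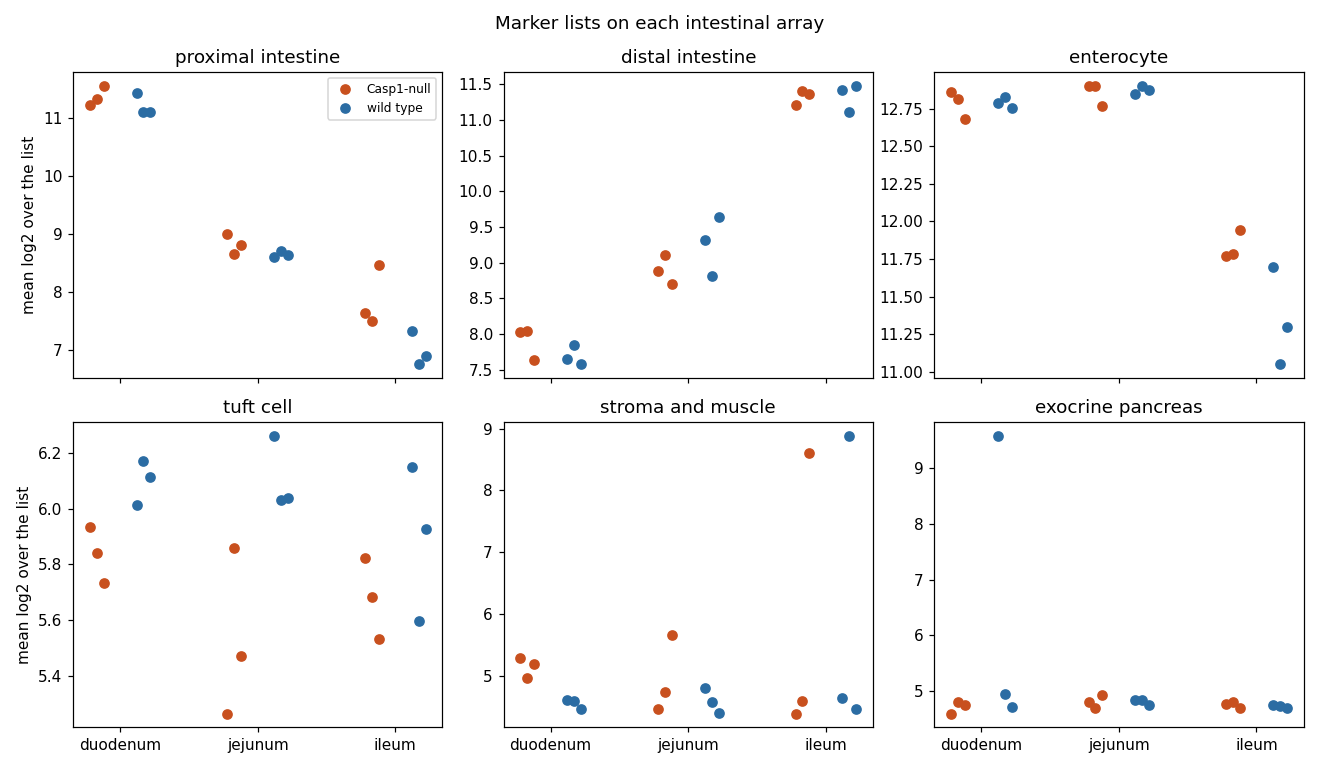
Mean log2 level over 6 marker lists on each intestinal array, with Casp1-null arrays (orange) left of wild-type arrays (blue) in each segment. Proximal markers in ileum lie at 7.50 to 8.47 on Casp1-null arrays and 6.77 to 7.33 on wild-type arrays, and single arrays stand out for stroma and muscle in ileum and exocrine pancreas in duodenum.

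Casp1 itself served to check the labels. Its level was 5.82 to 7.80 on the 9 Casp1-null intestinal arrays and 8.26 to 9.95 on the 9 wild-type ones, without overlap. In liver it was low in both genotypes (4.10 in Casp1-null mice and 4.44 in wild type), so it was no check of the liver labels. No source used here says whether this probe set covers the deleted sequence.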

How the data were processed

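The authors deposited log2 expression values per probe set of single-colour whole-transcript arrays, made by RMA per the submitters' processing notes; its version, the array software and a genome build are not given in the sources used here. The deposited log2 values were used without further scaling. RNA was 100 ng per array with an integrity number above 8, per the labels' protocols. Of 35556 probe sets, 21218 had 1 gene symbol, 1881 several and 12457 none. Where a gene of the lists, or Casp1, had several probe sets, the one with the highest mean was used. Neighbours were taken by their probe set with the highest r. The genes after the tenth were taken by their probe set with the lowest interaction p.

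Differences were fitted with limma 3.58.1 in R 4.3.3 (lmFit, eBayes, two-sided, Benjamini-Hochberg over all probe sets, adjusted p under 0.05). The 18 intestinal arrays were fitted together (12 residual degrees of freedom) and liver alone (4). Errors are the SD of 3 arrays or the SE of the fit, and p-values measure the spread between these samples. Precision is limited by the number of arrays; with 3 arrays per genotype the smallest two-sided exact permutation p is 0.1. Fits were tested on simulated data. The reading of low groups was chosen after the data had been seen.

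The 10 genes, the pathway and marker lists and the tests were chosen with earlier results of these data known. Named genes were the 10, called genes of their lists (up to 4 per list and tissue by p), 2 neighbours of each by r, the 3 genes after the tenth by interaction p, and Casp1. Alternatives were other variance models, filters, scalings, array weights, blocks, and leaving out arrays. Plots used matplotlib 3.10.9 in Python 3.11.15.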

Additional observations from a re-analysis of the deposited data

Results flagged for a closer look

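For Pik3ap1, Slc25a48 and Ciapin1 the Casp1-null arrays lay fully above the wild-type arrays in 1 tissue and fully below them in another. In a single tissue the arrays were fully apart for 9.28% (ileum) to 20.2% (duodenum) of all probe sets. The share apart in opposite directions between tissues is not given here. The rule used the intestinal arrays, so nothing is read from how many genes did this. Pik3ap1 differed by -2.96 in ileum and 0.52 in liver. Slc25a48 differed by -0.71 in jejunum and -2.59 in ileum, and by 0.46 in liver, with both jejunal means under the array median. Its lowest Casp1-null liver array was only just above its highest wild-type liver array. Ciapin1 differed by -0.36 in duodenum, and by 0.60 in jejunum, 0.79 in ileum and 0.89 in liver. The differences between liver and intestine were not tested, and liver was sampled after a fast without oil.

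Fabp1, a marker of enterocytes and proximal intestine that is not among the 10 genes, had a genotype difference that varied by segment in the limma F test (adjusted p = 0.0354). It differed by 0.0516 in duodenum, -0.11 in jejunum and 1.76 in ileum.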

How the results depend on the processing

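In the segment where each of the 10 genes differed most, its Casp1-null and wild-type arrays were fully apart. No array left out could therefore change the sign there, and the differences with 1 array left out describe size only. In ileum these ran from -3.08 to -2.88 for Pik3ap1, -5.06 to -4.64 for ccdc198, -1.80 to -1.57 for Hao2, -2.94 to -2.38 for Slc25a48 and 1.54 to 1.89 for Cxcl11. In duodenum they ran from -2.82 to -2.44 for Cbr3, -1.31 to -1.18 for Pzp and -1.04 to -0.96 for Fbxw9. For Ciapin1 in ileum they ran from 0.71 to 0.87, and for Tnip3 in jejunum from -1.99 to -1.86.

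Counts of called probe sets moved more. Of the 10 genes, which were chosen on these arrays, 8 to 10 stayed called for the segment-dependent difference with 1 array left out. With the replicate block 9 stayed called. For the segment-dependent difference the count was 30, with 17 among probe sets above the median, 19 with the replicate block, and 16 to 30 leaving out 1 array (16 to 19 without wild-type duodenum array 2, any wild-type jejunum array or wild-type ileum array 3). In duodenum it was 366, with 571 under array weights and 219 to 427 leaving out 1 array (219 to 242 without its Casp1-null array 3 or wild-type arrays 2 or 3). In jejunum it was 581, with 224 from the 6 arrays of the segment alone and 293 to 630 leaving out 1 array (293 to 348 without its Casp1-null array 3 or wild-type arrays 1 or 2). In ileum it was 258, with 41 from its 6 arrays alone and 167 to 270 leaving out 1 array (170 without its Casp1-null array 3, 167 without its wild-type array 3). In liver it was 258, with 92 under the replicate block, 903 with all 24 arrays, and 71 to 486 leaving out 1 array (132 or fewer for each array except Casp1-null array 1, whose removal gave the most). The cause of these shifts was not tested, apart from the fewer samples or probe sets in some fits. Deviations of samples with the same number and genotype had r from -0.10 to 0.17 across segments (over 0.1 in 5 of 18 pairs). Samples with the same number but different genotype had r from -0.38 to 0.30 (over 0.1 in 1 of 12 pairs). These values cannot show whether a number is a mouse. The numbers were not taken as pairs in the main fits. Leaving out Casp1-null ileum array 3 and wild-type ileum array 2 together, a choice made after the data were seen, gave 28 segment-dependent probe sets, 472 in duodenum, 707 in jejunum and 176 in ileum. It moved the spread of the genotype difference over segments to 1.50 for Hao2, against 1.68 with all arrays, and to 1.99 for Tnip3, against 1.78. Without Casp1-null ileum array 3 alone the Tnip3 spread was 1.96.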
